A study of Mus musculus with 15 samples.

Results

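The matrix metalloproteinases (MMPs) and their tissue inhibitors (TIMPs) were followed through white matter injury in mouse corpus callosum, the fibre tract that joins the hemispheres. The members were the rows of the count table with the symbols Mmp2, Mmp9, Mmp12, Mmp14, Mmp19, Timp1, Timp2, Timp3 and Timp4, that is 9 of 33321 genes, and all 9 were found and passed the filter on low counts. The series comprised 15 RNA-seq libraries in 5 groups of 3. The sham group was callosum of sham-operated mice taken where saline had been injected, with no day given. The LPC ipsilateral group was injured callosum 4 days after lysophosphatidylcholine, a detergent-like lipid that strips myelin, and the LPC contralateral group was tissue from the other side. The L-NIO ipsilateral group was injured callosum 4 days after L-NIO, an inhibitor of nitric oxide synthase used to produce an ischaemic white matter lesion, and the L-NIO contralateral group was its other side. No allele or transgene was labelled, and no strain, age or sex is stated in the labels. Nor do the labels tell if each library was a separate mouse or a pool, so a p-value here measures only how these samples spread, and that spread may be technical.

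MMPs are zinc proteases that cleave collagens, laminins, other matrix proteins and myelin basic protein, and most are secreted as inactive proenzymes. TIMPs bind the active site of MMPs and block it, and TIMP2 also takes part in the activation of proMMP2 by the membrane protease MMP14. In injured white matter MMPs are known for opening the basement membrane of vessels, for clearing inhibitory matrix and for the migration of immune cells.

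Of the 9 members, 2 rose in LPC-injured callosum against the saline site, where 5.19% of the 16795 tested genes were called at an edgeR adjusted p under 0.05. They were Mmp12, the macrophage elastase, and Timp2, the most abundant of the 4 inhibitors. Mmp12 passed the filter on low counts only through the injured libraries, so its call carries little weight in that count. The remaining 7 passed in no comparison, and 0 of 9 members passed in the other 8 comparisons, in which between 0% and 0.00595% of tested genes were called. At an unadjusted p under 0.05 there were 4 members in LPC ipsilateral against sham (20.2% of all tested genes), 2 in L-NIO ipsilateral against sham (8.87%), 4 between the LPC sides (12.1%) and 3 between the L-NIO sides (6.08%). At the same cut there were 2 between the lesions (8.39%), 1 between the contralateral groups (3.43%) and 0 in LPC contralateral against sham (9.67%), in L-NIO contralateral against sham (2.72%) and in the test of the side difference (1.02%). DESeq2 called the same 2 members after LPC (9% of all tested genes), 0 after L-NIO (1.41%), 3 between the LPC sides (Mmp2, Mmp12 and Mmp19; 4.17%) and 1 between the L-NIO sides (Mmp12; 1.07%). In every comparison limma on log2(FPKM + 1) called 0 members, and it called at most 3 genes of the whole table. The median log2 fold change of the 9 members against sham was 0.76 after LPC and 0.18 after L-NIO, and the medians over all tested genes were 0.01 and -0.02. Because the members, Mmp12 included, were chosen with earlier results of these data known, these medians are description and no test.

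Upstream sequence is shown for Mmp12, the member with the widest range, and for Timp1, which lies inside another gene. The RefSeq table of promoters, build GRCm38.p6, held 6 of the 9 members, with 7 start sites. Each window covered the 250 bases before an annotated start, read 5′ to 3′ along the gene, and capitals mark matches on either strand to TGANTCA (AP-1), AGGAAG (ETS) or GGGCGG (GC box).
Mmp12, the first of 2 start sites, chr9:7344147-7344380, plus strand: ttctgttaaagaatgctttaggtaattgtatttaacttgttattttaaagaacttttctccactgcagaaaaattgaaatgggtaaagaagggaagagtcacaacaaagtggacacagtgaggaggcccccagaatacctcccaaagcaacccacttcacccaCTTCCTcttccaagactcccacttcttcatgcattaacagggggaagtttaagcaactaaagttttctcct
Mmp12, the second start site, chr9:7347124-7347373, plus strand: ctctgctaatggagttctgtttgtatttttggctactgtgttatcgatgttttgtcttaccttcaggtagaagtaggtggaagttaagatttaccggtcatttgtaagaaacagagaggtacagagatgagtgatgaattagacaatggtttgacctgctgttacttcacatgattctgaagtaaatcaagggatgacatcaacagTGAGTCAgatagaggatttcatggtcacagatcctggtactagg
Timp1, chrX:20869916-20870165, plus strand: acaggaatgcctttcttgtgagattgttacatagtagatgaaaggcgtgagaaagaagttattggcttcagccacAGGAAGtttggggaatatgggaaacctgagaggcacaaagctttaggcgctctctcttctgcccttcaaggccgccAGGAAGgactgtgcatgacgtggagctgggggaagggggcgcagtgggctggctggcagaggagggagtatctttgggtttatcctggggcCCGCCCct
The first Mmp12 window is printed over 234 bases, because its last bases belong to an exon of another annotated transcript of the gene. AGGAAG stood in the first Mmp12 window on the other strand, 87 bases before the start, and at 2 places in Timp1, 175 and 99 bases before the start, where GGGCGG stood 8 bases before it on the other strand. TGANTCA stood only in the second Mmp12 window, 44 bases before the start. Among 32851 windows of the same length, 6.75% held TGANTCA, 29.5% held AGGAAG and 32.7% held GGGCGG. None of the 3 windows held TATAAA (12.4% of windows) or TTCNNNGAA, the STAT motif (7.02%). The matches describe letters and no factor binding was measured.

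Library totals ran from 14896445 to 20916606 counts. Within a gene, levels are in CPM, that is counts over trimmed-mean library sizes, and between genes they are the authors' FPKM, which allow for gene length. Over the 15 libraries 8 oligodendrocyte markers summed to 16100 to 31700 CPM and 8 neuron markers to 3230 to 5560. Without a grey matter library these sums cannot check the label of white matter. The sum of 7 choroid plexus and ependyma markers was uneven within groups. It was 54.1, 1420 and 90.8 CPM at the saline site, 49, 208 and 1070 opposite LPC, and 86.4, 1240 and 105 opposite L-NIO. At the injured sides it was 96.6, 62.8 and 559 CPM after LPC and 239, 146 and 745 after L-NIO. The library at 559, LPC ipsilateral replicate 3, also had the highest oligodendrocyte sum, 31700 CPM. LPC ipsilateral replicate 3 stood apart from its group: on the first principal component, which held 31.6% of the variance, it lay at -11.3 and the other LPC ipsilateral libraries at 77.2 and 50.6. For 7 of the 9 members its CPM was within the range of the 9 sham and contralateral libraries, against 3 of 9 in replicate 1 and 2 of 9 in replicate 2. The same share over all tested genes was not taken, so these counts describe the libraries and are not shown to be particular to the members. The log2 fold changes of LPC ipsilateral against sham are therefore given with and without LPC ipsilateral replicate 3. Without it 3 of 9 members were called in that comparison (Mmp12, Mmp19 and Timp2), where 9.88% of tested genes were called, and 3 of 9 between the LPC sides (Mmp2, Mmp12 and Mmp19), where 5.64% were.

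**Figure D1:**
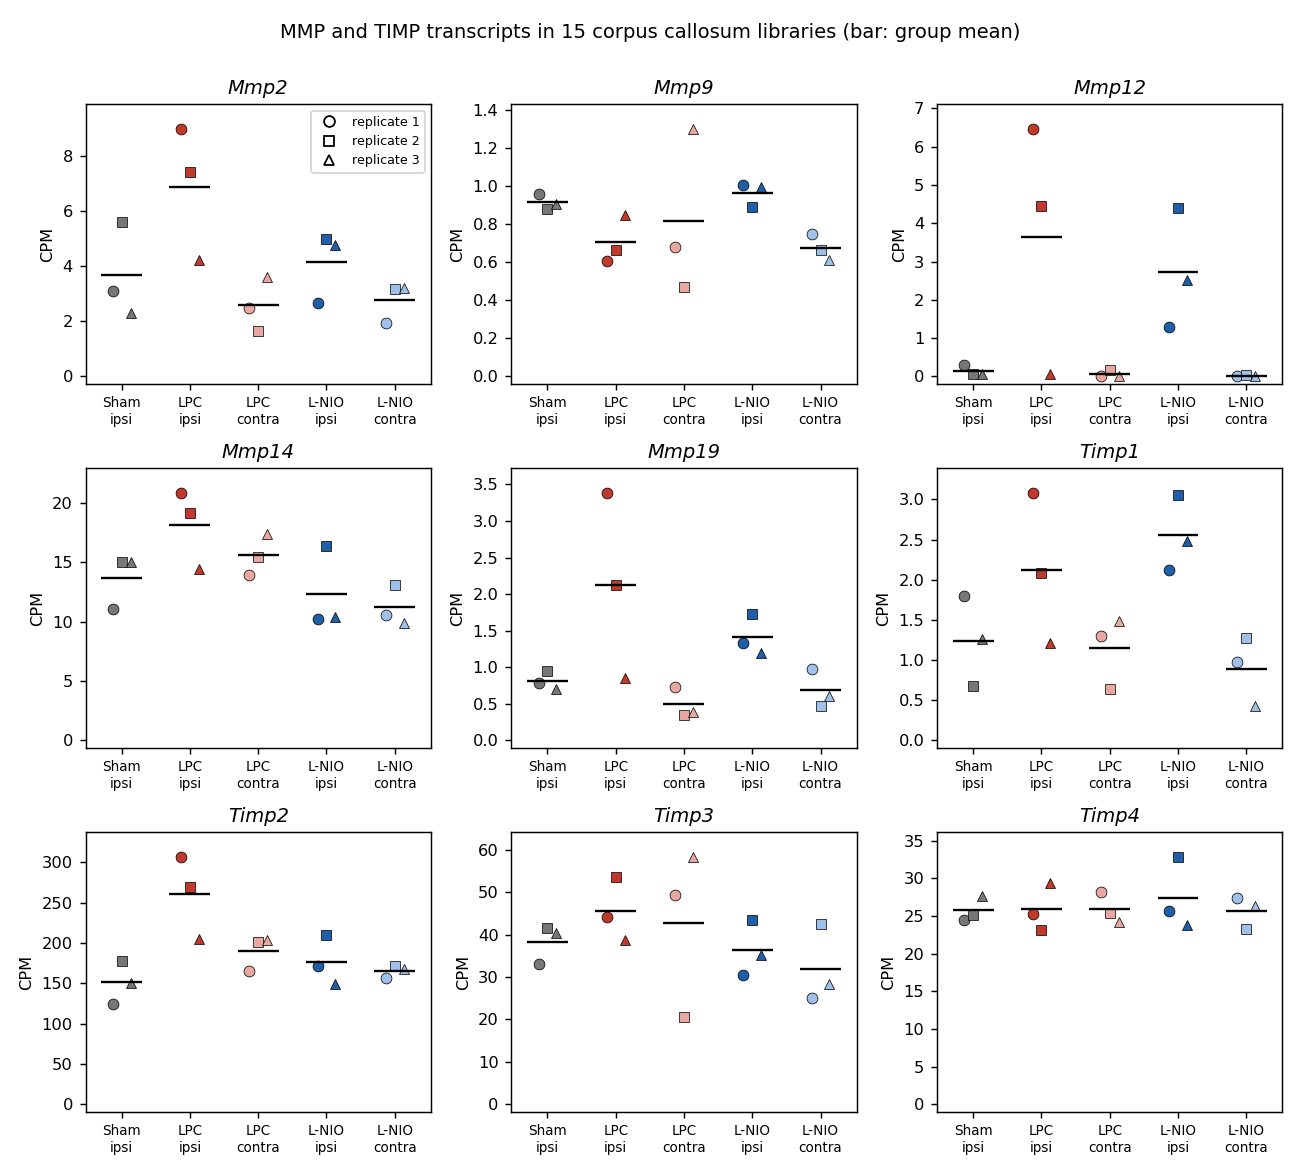
Each panel plots the CPM of one member in all 15 libraries by group, with circles, squares and triangles for replicates 1, 2 and 3 and a bar for the group mean. Mmp12 reached 6.46 CPM after LPC and 4.39 after L-NIO and stayed at or below 0.299 in the sham and contralateral libraries, and Timp4 lay between 23.2 and 32.8 everywhere.

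Mmp12 encodes the secreted elastase of macrophages. Its raw counts were 5, 1 and 1 in the sham libraries, 107, 94 and 1 after LPC, 0, 3 and 0 on the side opposite LPC, 23, 79 and 51 after L-NIO, and 0, 1 and 0 on the side opposite L-NIO. All 5 libraries with more than 5 counts were from injured sides, and the LPC replicate that stood apart held 1. The mean was 0.139 ± 0.139 CPM (SD, n = 3) at the saline site, 3.65 ± 3.27 after LPC and 2.74 ± 1.57 after L-NIO. Against sham the log2 fold change after LPC was 4.67 (SE 1.17, adjusted p = 0.0356), and with no filter on low counts it was 4.63 and was not called (adjusted p = 0.0734). Without LPC ipsilateral replicate 3 it was 5.24 (adjusted p = 0.000254). It was 5.82 without sham replicate 1, which held 5 of the 7 sham counts, and 4.0 without LPC ipsilateral replicate 1, the lowest and highest values with 1 library left out, and neither was called (adjusted p = 0.0739 and 0.174). After L-NIO it was 4.25 (SE 1.17, adjusted p = 0.272), although all 3 L-NIO libraries lay above all 3 sham libraries. With LPC ipsilateral replicate 3 left out of the shared estimate of spread, the same L-NIO fold change had an adjusted p of 0.00429 and 2.35% of tested genes were called.

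Mmp12 passed the filter on low counts only through the injured libraries, so its p-values and its count among the called members carry little weight, and its depth was read from summed counts. The 202 counts after LPC against 7 at the saline site, scaled by library size, gave a ratio of 27.3 (95% exact interval 13 to 68.8), and the 153 counts after L-NIO gave 20 (9.49 to 50.6). Against their own contralateral sides the ratios were 64.2 (21.6 to 314) after LPC and 150 after L-NIO, the last with 1 count below the line and an interval from 26.5 to 5950. These intervals cover counting error only, and reads without molecular identifiers are not independent molecules. In bulk tissue, more cells of a type and more RNA per cell cannot be told apart.

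Between sides, Mmp12 was higher by 5.82 on the log2 scale after LPC (SE 1.31, adjusted p = 0.0629) and by 6.77 after L-NIO (SE 1.52, adjusted p = 0.219). Without LPC ipsilateral replicate 3 these became 6.39 (adjusted p = 0.000151) and 6.77 (adjusted p = 0.00134), with 5.64% and 2.21% of tested genes called. Same-numbered L-NIO libraries of the 2 sides deviated together, with correlations of 0.599, 0.356 and 0.249. In a fit chosen after seeing the data, of the 6 L-NIO libraries alone with the replicate number as a block, Mmp12 rose by 6.85 (SE 0.64, adjusted p = 7.02e-06) and 685 genes were called. With the block over all 15 libraries Mmp12 rose by 7.16 (SE 1.46, adjusted p = 0.217). The labels do not state that a number marks one mouse. The L-NIO and LPC lesions differed by -0.42 for Mmp12 (95% interval -2.25 to 1.41, adjusted p = 0.93).

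Mmp12 lies in a row of 10 MMP genes on mouse chromosome 9, and the other 9 were close to silent. Mmp3, stromelysin, had 2, 11 and 13 counts after L-NIO, 3, 3 and 0 after LPC and 2, 0 and 0 at the saline site. Its summed counts after L-NIO, 26 against 2, gave a ratio of 11.9 with an interval of 2.98 to 104. Mmp13, a collagenase, had 8, 8 and 7 counts after L-NIO and 7, 6 and 0 after LPC, with 0, 0 and 3 at the saline site and 6, 1 and 0 opposite L-NIO. Mmp10, another stromelysin, summed to 8 counts after L-NIO and 2 after LPC, and Mmp8, the neutrophil collagenase, to 2 and 7. In the sham group Mmp10 and Mmp8 had 0 counts, which allows up to 0.0584 CPM each. Mmp1a, Mmp1b and Mmp7 had 0 counts in all 15 libraries. Of these 10 genes, 3, 6 and 5 were detected in the L-NIO ipsilateral libraries and 5, 6 and 1 in the LPC ipsilateral libraries. At the saline site 2, 1 and 2 were detected, opposite LPC 2, 2 and 1, and opposite L-NIO 1, 4 and 0. L-NIO contralateral replicate 2, with 4, was above L-NIO ipsilateral replicate 1, with 3, so injured and uninjured libraries overlapped. None of the 9 others reached enough counts to be tested.

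**Figure D2:**
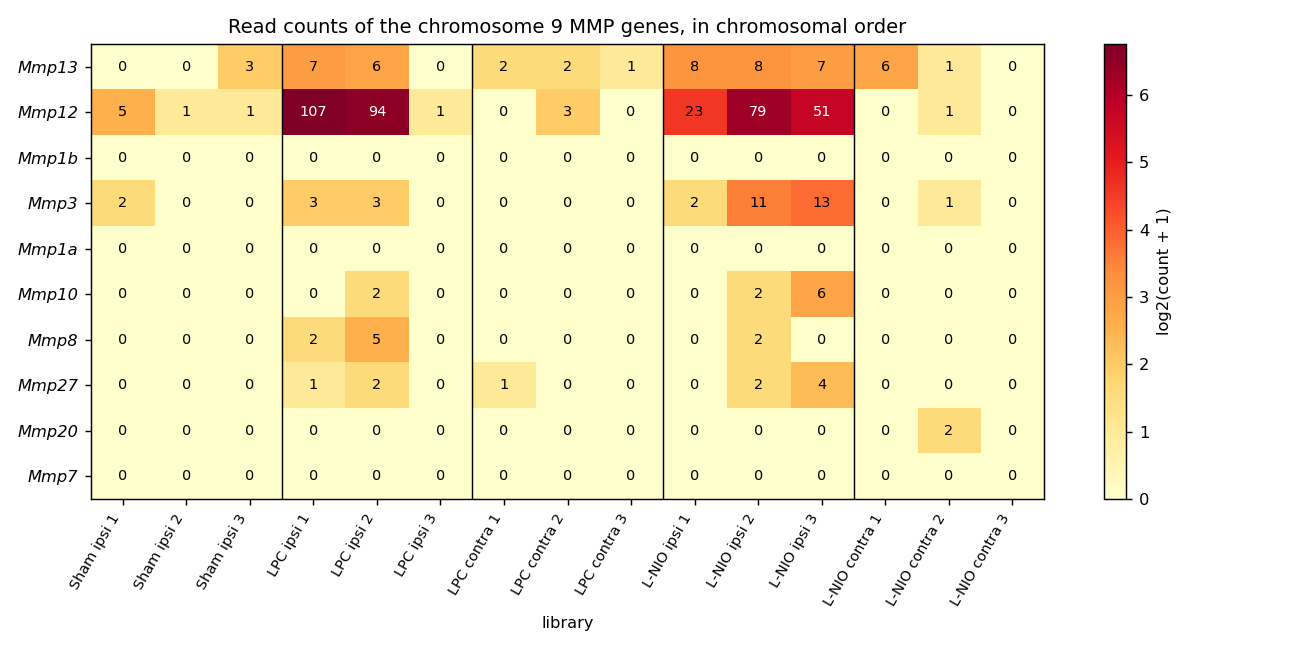
Read counts of the 10 MMP genes of chromosome 9 (rows) in the 15 libraries (columns), printed in each cell and coloured by log2(count + 1). Mmp12 has 107, 94, 23, 79 and 51 counts in 5 of the 6 ipsilateral injury libraries, and LPC ipsilateral replicate 3 has 1.

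Mmp2 and Mmp9 are the gelatinases, which degrade type IV collagen and denatured collagen. Mmp2 read 3.11, 5.61 and 2.31 CPM at the saline site, 8.99, 7.42 and 4.23 after LPC, 2.5, 1.63 and 3.63 opposite LPC, 2.67, 5.01 and 4.76 after L-NIO, and 1.96, 3.17 and 3.23 opposite L-NIO. The LPC libraries overlapped sham through replicate 3 alone and lay above all 3 libraries of their own opposite side. Its log2 fold change after LPC was 0.91 against sham (SE 0.39, adjusted p = 0.204) and 1.41 against the other side (SE 0.40, adjusted p = 0.0971), and neither passed. Without LPC ipsilateral replicate 3 these were 1.17 (adjusted p = 0.0812) and 1.67 (adjusted p = 0.0195). After L-NIO it was 0.18 against sham (SE 0.39, adjusted p = 0.94).

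Mmp9 had 8 to 20 counts in every library. It read 0.957, 0.879 and 0.905 CPM at the saline site and 0.604, 0.661 and 0.847 after LPC, so every LPC library lay below every sham library. The difference was small, -0.38 on the log2 scale (SE 0.37, 95% interval -1.16 to 0.41, adjusted p = 0.624), and was not distinguishable at this depth. It was -0.52 (adjusted p = 0.517) without LPC ipsilateral replicate 3. After L-NIO the values were 1.0, 0.890 and 0.992 CPM, a difference of 0.07 (SE 0.36, adjusted p = 0.975). The 3 L-NIO contralateral libraries, 0.749, 0.662 and 0.610 CPM, lay below the 3 ipsilateral ones, with a log2 difference of 0.51 (SE 0.36, adjusted p = 1).

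Mmp14 is anchored in the cell membrane and activates proMMP2, and per length it was the most abundant of the 5 MMP members, at 2.23 FPKM over all libraries. It read 11.1, 15 and 15 CPM at the saline site, 20.8, 19.2 and 14.4 after LPC and 10.3, 16.4 and 10.4 after L-NIO. LPC replicates 1 and 2 were above every other library of the series, and replicate 3 was within the sham range. The log2 fold change was 0.41 after LPC (SE 0.21, adjusted p = 0.294), 0.55 without LPC ipsilateral replicate 3 (adjusted p = 0.139), and -0.15 after L-NIO (SE 0.21, adjusted p = 0.899). The lesions differed by -0.56 (SE 0.21, 95% interval -1.0 to -0.11), lower after L-NIO, with an adjusted p of 0.559.

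Mmp19 is a secreted protease of basement membrane proteins. It read 0.777, 0.947 and 0.704 CPM at the saline site, 3.38, 2.13 and 0.847 after LPC, 0.730, 0.350 and 0.389 opposite LPC, 1.34, 1.72 and 1.19 after L-NIO, and 0.979, 0.473 and 0.610 opposite L-NIO. Every L-NIO library lay above every sham and contralateral library, as did LPC replicates 1 and 2. The log2 fold change against sham was 1.39 after LPC (SE 0.46, adjusted p = 0.0973) and 0.81 after L-NIO (SE 0.47, adjusted p = 0.68). Without LPC ipsilateral replicate 3, Mmp19 rose after LPC by 1.76 (adjusted p = 0.0113). Against the other side it was higher by 2.08 after LPC (SE 0.48, adjusted p = 0.0629) and by 1.04 after L-NIO (SE 0.47, adjusted p = 0.792), the first reaching 2.45 (adjusted p = 0.0016) without that library.

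**Figure D3:**
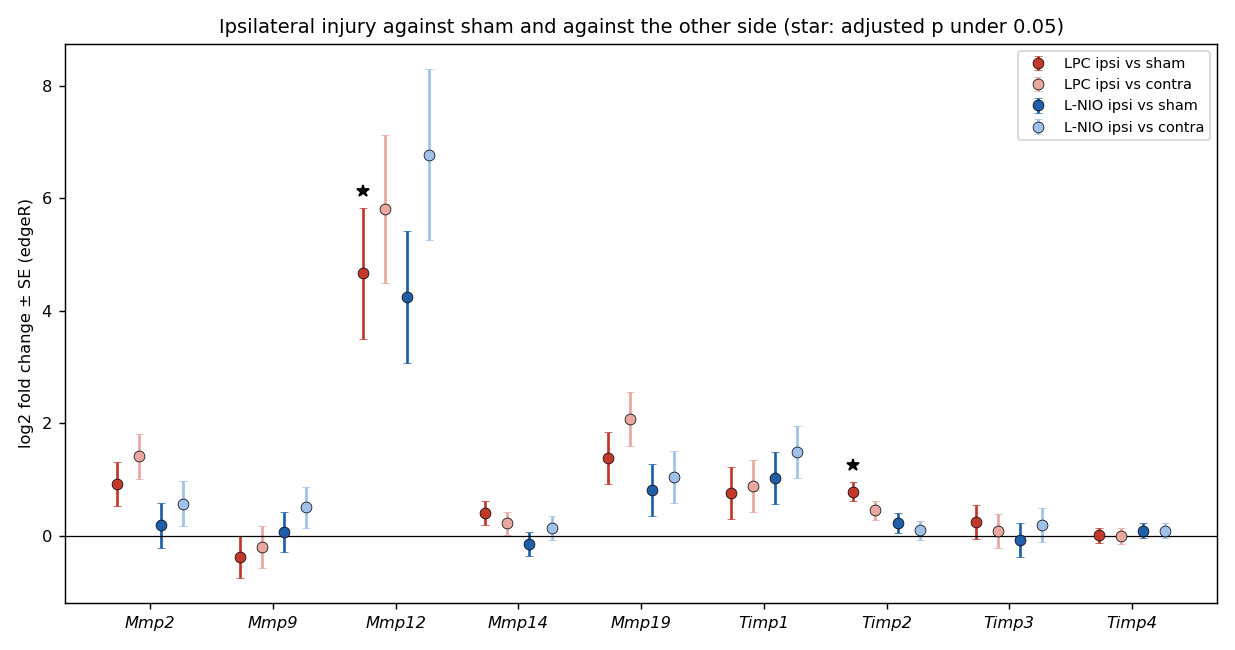
Points are edgeR log2 fold changes of the 9 members, with bars of 1 SE, for each ipsilateral lesion against sham and against its other side, from 3 libraries a group. Stars mark an adjusted p under 0.05, which Mmp12 (4.67) and Timp2 (0.78) reached in LPC ipsilateral against sham. The star of Mmp12 carries little weight, because the gene passed the filter on low counts only through the injured libraries.

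Timp1 is the inducible inhibitor, which acts on most secreted MMPs. It read 1.79, 0.676 and 1.26 CPM at the saline site, 3.08, 2.08 and 1.21 after LPC, 1.3, 0.642 and 1.49 opposite LPC, 2.12, 3.06 and 2.48 after L-NIO, and 0.979, 1.28 and 0.427 opposite L-NIO. The 3 L-NIO libraries lay above all sham and all contralateral libraries, and the LPC libraries overlapped sham through replicate 3. The log2 fold change against sham was 1.03 after L-NIO (SE 0.46, adjusted p = 0.531) and 0.76 after LPC (SE 0.46, adjusted p = 0.382), the last becoming 1.04 (adjusted p = 0.198) without LPC ipsilateral replicate 3. Against its other side the L-NIO lesion was higher by 1.49 (SE 0.47, adjusted p = 0.389). With the replicate block over all 15 libraries it was higher by 1.53 (SE 0.47, adjusted p = 0.373). In the fit of the 6 L-NIO libraries with that block, chosen after seeing the data, the difference was 1.54 (SE 0.35, adjusted p = 0.0193). That fit called 685 genes, and the labels do not state that a number marks one mouse. Timp1 had 7 to 55 counts a library, which limits its precision.

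Timp2 inhibits many MMPs and, at low amounts relative to MMP14, helps to activate proMMP2. It read 124.7, 178.0 and 150.3 CPM at the saline site, 306.2, 268.9 and 204.7 after LPC, 165.5, 201.1 and 204.1 opposite LPC, 171.2, 209.3 and 149.4 after L-NIO, and 156.1, 171.1 and 167.4 opposite L-NIO. All 3 LPC libraries lay above sham and above their opposite side, where the lowest injured library exceeded the highest contralateral one by less than 1 CPM. Timp2 rose 1.72-fold after LPC, 0.78 on the log2 scale (SE 0.17, 95% interval 0.42 to 1.15, adjusted p = 0.0245). The difference from the LPC contralateral side was 0.45 (SE 0.17, adjusted p = 0.257), and that side differed from sham by 0.33 (SE 0.17, adjusted p = 0.537). After L-NIO, Timp2 differed from sham by 0.23 (SE 0.17, adjusted p = 0.782) and from the LPC lesion by -0.56 (SE 0.17, 95% interval -0.92 to -0.19, adjusted p = 0.522).

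Both calls rested on the full set of libraries. Leaving out any one of the 3 sham libraries or of LPC ipsilateral replicates 1 and 2 ended the calls of Mmp12 and of Timp2, with fold changes of the same sign. These losses were not particular to the pair: over all tested genes the 871 calls fell to 1 without sham replicate 2 and to 0 in each of the other 4 fits. The adjusted p of Timp2 then lay between 0.0744 and 0.143 and that of Mmp12 between 0.0739 and 0.174. Mmp12 alone also lost its call without L-NIO ipsilateral replicate 3 (adjusted p = 0.0502) and without L-NIO contralateral replicate 2 or 3 (adjusted p = 0.0585 and 0.052). Without LPC ipsilateral replicate 3, Timp2 rose by 0.93 (adjusted p = 0.00212).

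Timp3, the inhibitor that binds to the matrix, and Timp4 were called in no comparison. Timp3 ran from 33.0 to 41.7 CPM at the saline site, from 38.7 to 53.7 after LPC and from 30.5 to 43.5 after L-NIO, and most widely opposite LPC, from 20.7 to 58.3. Its log2 fold change was 0.25 after LPC (SE 0.30, adjusted p = 0.71), 0.35 without LPC ipsilateral replicate 3 (adjusted p = 0.598), and -0.08 after L-NIO (SE 0.30, adjusted p = 0.968). Timp4 averaged between 25.7 and 27.4 CPM in the 5 groups, and the highest group mean was 1.07 times the lowest. After LPC its log2 fold change was 0.01, with a 95% interval from -0.28 to 0.30, and -0.09 without LPC ipsilateral replicate 3 (adjusted p = 0.786).

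All inhibitor genes but Timp2 lie inside another gene. In the GENCODE annotation of GRCm38, Timp1 lies inside Syn1, Timp4 inside Syn2 and Timp3 inside Syn3, all on the opposite strand, where Syn1, Syn2 and Syn3 encode synapsins of nerve terminals. Exons of Timp1 shared 0 of 888 bases with Syn1, those of Timp4 shared 90 of 5894 with Syn2, and those of Timp3 shared 1733 of 8144 with Syn3. Whether the counting used strand is not given in the sources used here. If it did not, reads in the bases that Timp3 shares with Syn3, and Timp4 with Syn2, cannot be assigned. After LPC the log2 fold changes of Syn1, Syn2 and Syn3 were -0.18, -0.25 and -0.25 (adjusted p = 0.649, 0.365 and 0.743), and after L-NIO -0.19, -0.36 and -0.54 (adjusted p = 0.839, 0.476 and 0.721).

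Between the contralateral groups and sham 0 of 9 members were called on either side. Apart from Mmp12, the largest of these differences was -0.69 for Mmp19 opposite LPC (SE 0.51, adjusted p = 0.638). In the test of whether the side difference itself differed between L-NIO and LPC, 0 of 9 members passed and 0 lay at an unadjusted p under 0.05. That difference was -1.04 for Mmp19 (95% interval -2.47 to 0.40), 0.60 for Timp1 (-0.79 to 1.99) and -0.84 for Mmp2 (-2.04 to 0.36), so intervals were wide. By group mean, Mmp2, Mmp12, Mmp14, Mmp19, Timp2 and Timp3 were highest after LPC, and Mmp9, Timp1 and Timp4 after L-NIO. The first and second groups in that order overlapped for every member except Timp2. For it the lowest LPC ipsilateral library, 204.7 CPM, lay just above the highest LPC contralateral one, 204.1. L-NIO ipsilateral replicate 2, at 209.3 CPM, lay above that LPC ipsilateral library, so the LPC lesion was not clear of all other groups. How many of all tested genes separated in this way was not taken.

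Inhibitor transcripts outnumbered those of the 5 MMP members per length in every library. Timp2 averaged 41.7 FPKM over the 15 libraries, Timp3 4.49, Timp4 4.16 and Timp1 1.68, against 2.23 for Mmp14, 1.12 for Mmp2, 0.293 for Mmp19, 0.216 for Mmp9 and 0.172 for Mmp12. The summed FPKM of the 4 inhibitors was 37.7, 48.7 and 43.6 at the saline site, 78.4, 72.9 and 57.0 after LPC and 46.7, 59.95 and 46.1 after L-NIO. For the 5 MMP members the sums were 3.14, 4.396 and 3.43 at the saline site, 7.51, 6.51 and 3.99 after LPC and 3.07, 5.25 and 4.09 after L-NIO. Both sums were highest in LPC replicates 1 and 2. The ratio of the MMP sum to the TIMP sum was 0.0841 ± 0.0059 (SD, n = 3) at the saline site, 0.0850 ± 0.0134 after LPC (exact permutation p = 1, two-sided) and 0.0807 ± 0.0129 after L-NIO (exact permutation p = 0.8). With 3 libraries against 3 the smallest p is 0.1. The ratio depended on which genes were summed and on the control. With all 23 MMP genes of the lists it was 0.872 ± 0.0569 at the saline site, 0.587 ± 0.0867 after LPC and 0.653 ± 0.0716 after L-NIO, lower by more than the spread in both lesions (differences of -0.286 and -0.219, exact permutation p = 0.1 for each, two-sided, n = 3). Mmp17, a membrane-type MMP that is no member, was the largest part of that wider sum, at 18.8 FPKM over the 15 libraries. Against the contralateral side the ratio of the 5 members was higher by 0.0179 after LPC and by 0.0167 after L-NIO (exact permutation p = 0.2 for each, n = 3).

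Mmp12 made up 10.9%, 8.995% and 0.201% of the MMP sum after LPC and 5.28%, 10.9% and 8.49% after L-NIO, against at most 1.248% at the saline site. Timp1 made up 5.09%, 1.46% and 3.04% of the TIMP sum at the saline site, 4.06%, 3.07% and 2.29% after LPC, and 4.68%, 5.40% and 6.02% after L-NIO. The Timp1 share after L-NIO, 5.37% ± 0.67 (SD, n = 3), differed from sham by 2.17 percentage points (exact permutation p = 0.2), and the groups overlapped through sham replicate 1. After LPC the share differed from sham by -0.06 points (exact permutation p = 1).

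**Figure D4:**
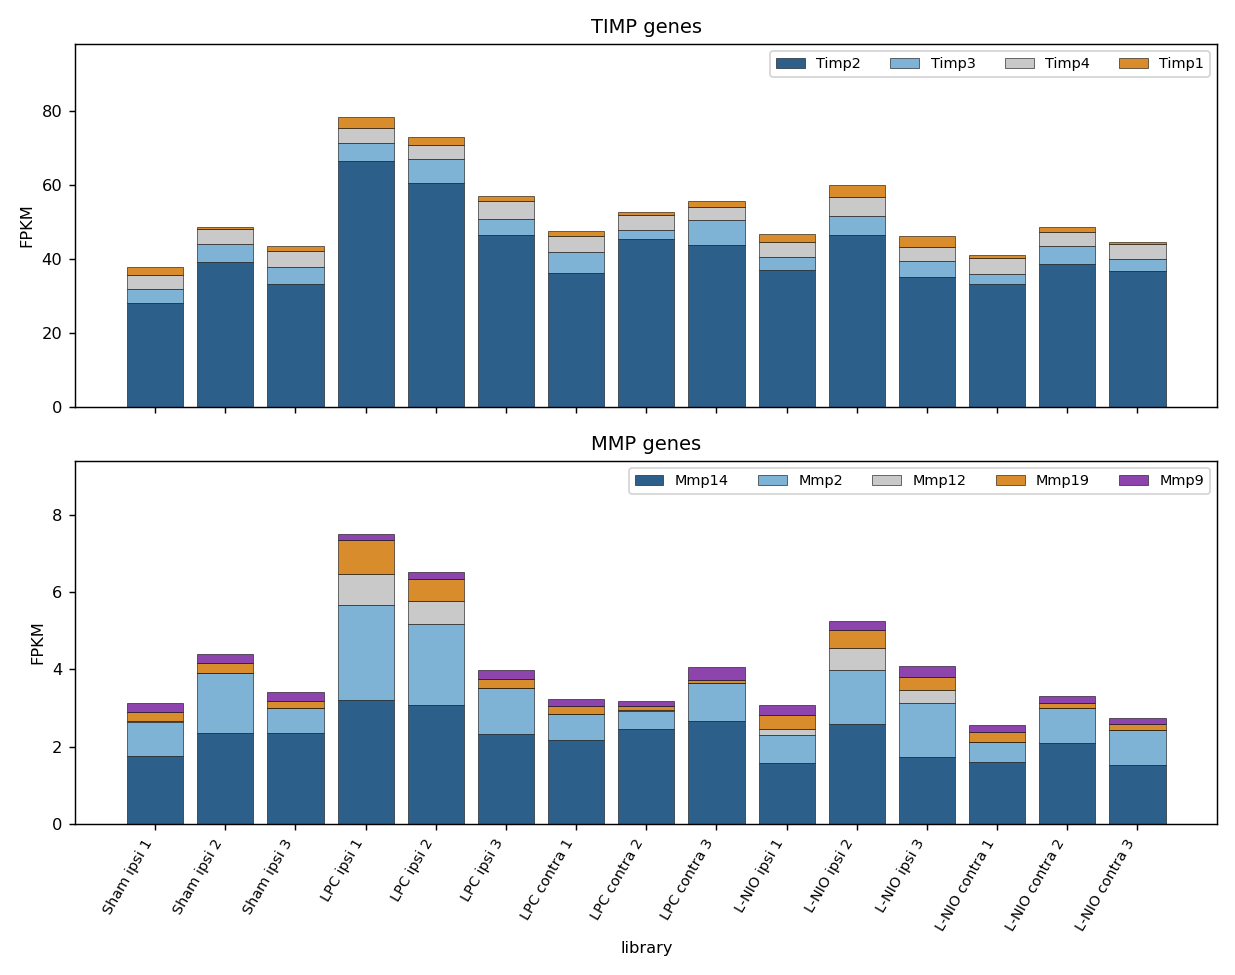
Bars stack the authors' FPKM of the 4 TIMP genes (upper panel) and the 5 MMP members (lower panel) in each of the 15 libraries. Timp2 takes the largest part of every upper bar, and LPC ipsilateral replicates 1 and 2 have the tallest bars of both panels, 78.4 and 72.9 FPKM for TIMPs and 7.51 and 6.51 for MMPs.

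Among 18 genes of MMP activation and control, 17 were tested and 4 rose in LPC ipsilateral against sham, where 5.19% of all tested genes were called. Of the 17, 0 were lower, and the median log2 fold change was 0.60. Plau, the urokinase that makes plasmin and so starts MMP activation, read 1.61, 2.16 and 2.06 CPM at the saline site and 26.1, 16.0 and 3.27 after LPC, and rose by 2.96 (SE 0.53, adjusted p = 0.0243). Plaur, its receptor, rose by 2.82 (SE 0.61, adjusted p = 0.0243), and Cd44, a hyaluronan receptor that can hold MMPs at the cell surface, by 2.13 (SE 0.40, adjusted p = 0.0243). Serpine2, an inhibitor of urokinase and thrombin, rose by 0.83 (SE 0.21, adjusted p = 0.037). In LPC ipsilateral replicate 3 Plaur read 1.03 CPM and Serpine2 134.8, both within the sham ranges of 0.676 to 1.26 and 109.9 to 144.1. Without that library the log2 fold changes were 3.43 for Plau, 3.32 for Plaur, 2.55 for Cd44 and 1.09 for Serpine2, all called. In that fit 8 of the 17 genes rose, where 9.88% of all tested genes were called. After L-NIO 0 of the 17 passed in edgeR, where 0% of all tested genes did. At an unadjusted p under 0.05 lay 5 (8.87% of all tested genes). DESeq2 called 3, Cd44, Lcn2 and Plau (1.41% of all tested genes). The smallest adjusted p-values were those of Cd44 at 1.72 (SE 0.40, adjusted p = 0.263), Lcn2, lipocalin 2, which binds MMP9, at 4.42 (SE 1.01, adjusted p = 0.263), Plau at 1.83 (SE 0.52, adjusted p = 0.272) and Plaur at 1.82 (SE 0.60, adjusted p = 0.331). Plau read 4.96, 9.18 and 6.70 CPM after L-NIO, above every sham library.

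Of 18 further MMP genes, 7 had enough reads to be tested and 0 passed after either injury in edgeR or DESeq2. In edgeR without LPC ipsilateral replicate 3, 0 passed as well. At an unadjusted p under 0.05 lay 2 after LPC (20.2% of all tested genes) and 1 after L-NIO (8.87%). The median log2 fold changes were 0.42 after LPC and -0.17 after L-NIO. The smallest adjusted p after LPC was that of Mmp15, a membrane-type MMP, at 0.46 (SE 0.19, adjusted p = 0.174), followed by Mmp23 at 0.88 (SE 0.39, adjusted p = 0.228). Among 13 ADAM and ADAMTS proteases 0 passed after either injury, with 6 after LPC and 0 after L-NIO at an unadjusted p under 0.05, where 20.2% and 8.87% of all tested genes lay. Adam15 came closest after LPC, at 0.62 (SE 0.17, adjusted p = 0.054), and was the 1 of 13 that DESeq2 called (9% of all tested genes). It read 0.81 (adjusted p = 0.00301) without LPC ipsilateral replicate 3. There 3 of 13 were called, Adam8, Adam10 and Adam15, against 9.88% of all tested genes. Of 23 MMP substrates 1 rose after LPC, Lamb2, the laminin beta-2 chain of basement membranes, by 1.08 (SE 0.20, adjusted p = 0.0243), so the share of substrates called was not above the 5.19% of all tested genes. Lamb2 stayed called without LPC ipsilateral replicate 3 (adjusted p = 7.04e-05), with Fn1 and Ncan added. That made 3 of 23, against 9.88% of all tested genes. Fn1, fibronectin, followed Nid1 and Lamc1 in adjusted p, at 1.55 (SE 0.53, adjusted p = 0.118). After L-NIO 0 of 23 passed in edgeR or DESeq2, with 2 at an unadjusted p under 0.05 (8.87% of all tested genes).

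Markers of immune and other cells moved with several members. Against sham, edgeR called 5.19% of all tested genes after LPC, 9.88% without LPC ipsilateral replicate 3, and 0% after L-NIO. After L-NIO 8.87% of all tested genes lay at an unadjusted p under 0.05, and DESeq2 called 1.41%. The summed CPM of 8 damage-associated microglia and macrophage markers was 98.9 to 130 at the saline site, 87.4 to 1320 after LPC and 267 to 440 after L-NIO, with 78.0 to 122 opposite LPC and 72.4 to 103 opposite L-NIO. LPC ipsilateral replicate 3 was the library at 87.4. Of these markers 7 of 8 rose after LPC against sham. After L-NIO edgeR called 0 of 8, with 6 at an unadjusted p under 0.05, and DESeq2 called 5. Of the homeostatic microglia markers 8 of 8 rose after LPC. Their sum ran from 312 to 364 at the saline site and from 438 to 2180 after LPC. After L-NIO the homeostatic sum was 599 to 857, above every sham library. There edgeR called 0 of 8, with 7 at an unadjusted p under 0.05, and DESeq2 called 3. For 8 monocyte and border macrophage markers the sum was 8.99 to 19.6 at the saline site, 9.49 to 17.5 after LPC and 12.3 to 13.6 after L-NIO, and 0 of 6 tested passed. The 9 neutrophil markers summed to 7.85 to 16.6 CPM at the saline site, 16.6 to 193 after LPC and 55.4 to 64.7 after L-NIO. Csf3r, which microglia also express, made up most of that sum, with 191.5 CPM in LPC replicate 1, and Ly6g had 0 counts in all 15 libraries. The 5 markers of oligodendrocyte precursors summed to 221 to 280 CPM at the saline site, 364 to 461 after LPC and 208 to 348 after L-NIO. Of these 3 rose after LPC, with or without LPC ipsilateral replicate 3. The 8 neuron markers were lower, at 3230 to 4100 CPM after LPC against 4280 to 5560 at the saline site, with 2 lower at an adjusted p under 0.05 and 4 without that replicate. After L-NIO they were 3970 to 4560, and 0 were called. The part of these cells in the members' values was not tested.

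Over the 15 libraries, Pearson r was taken between log2(CPM + 0.1) of a member and of the summed damage-associated markers. It was 0.961 for Mmp12, 0.882 for Mmp19, 0.763 for Timp1, 0.68 for Mmp2 and 0.62 for Timp2. For Mmp14, Timp3, Timp4 and Mmp9 it was 0.439, 0.244, -0.0913 and -0.117. These points share their libraries and injury groups, so the coefficients describe the series only. They were not particular to the damage-associated list. Homeostatic microglia markers gave 0.926 for Mmp12, 0.834 for Mmp19, 0.752 for Timp2, 0.746 for Mmp2 and 0.717 for Timp1. Neutrophil markers, mostly Csf3r, gave 0.95 for Mmp12, and precursor markers 0.744 for Timp2. Astrocyte markers summed to 4650 to 5210 CPM at the saline site, 5770 to 7690 after LPC and 5320 to 6770 after L-NIO. Of 7, edgeR called 2 higher after LPC against sham (5.19% of all tested genes) and 0 after L-NIO (0%). Without LPC ipsilateral replicate 3 it called 4 of 7 after LPC (9.88%). Astrocyte markers gave an r of 0.79 for Mmp2, 0.783 for Timp1, 0.721 for Mmp12, 0.714 for Timp3, 0.697 for Mmp19 and 0.689 for Timp2. For Mmp14, Mmp9 and Timp4 they gave 0.647, 0.153 and 0.0589.

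**Figure D5:**
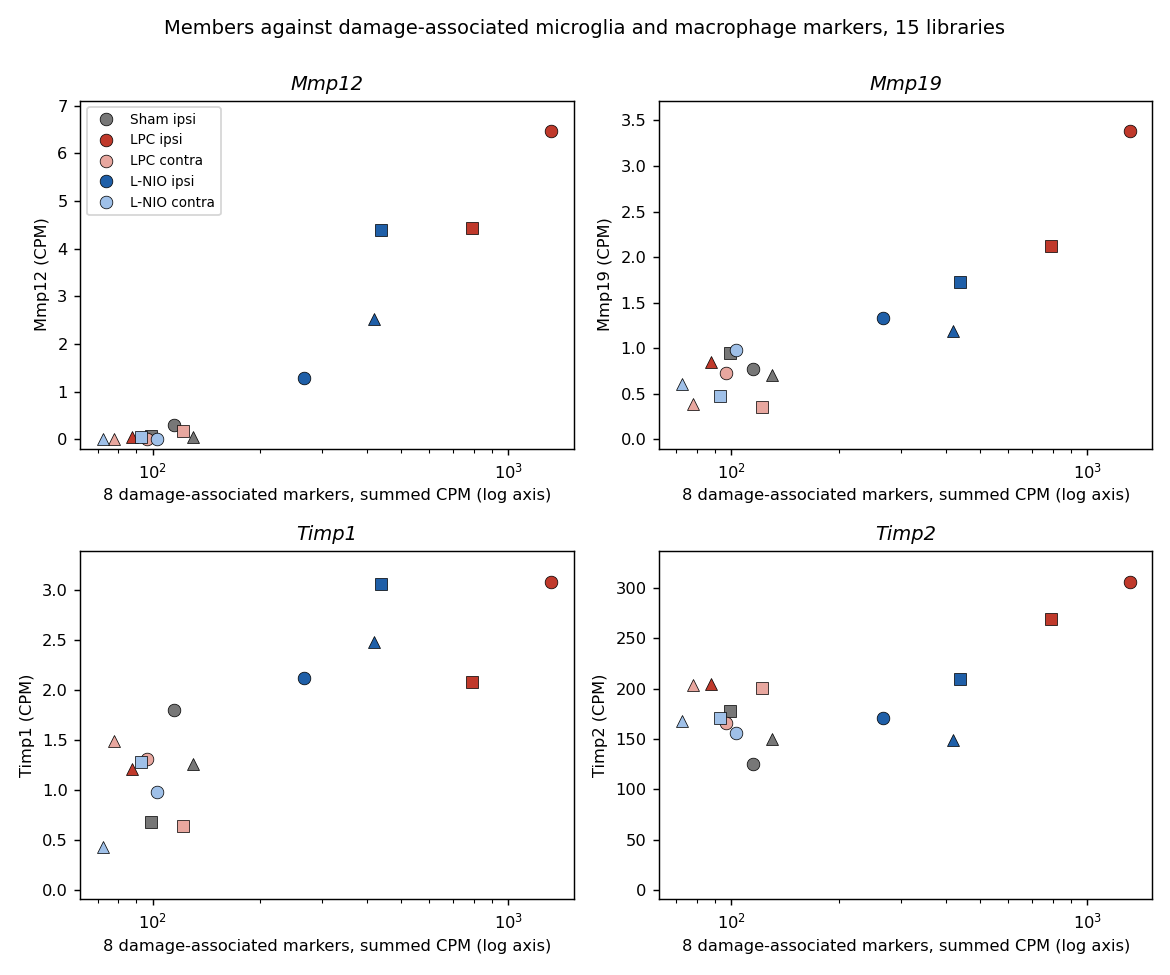
Each panel plots a member's CPM against the summed CPM of 8 damage-associated markers (log axis) in 15 libraries, with colours for groups and circles, squares and triangles for replicates 1, 2 and 3. The LPC replicate 3 triangle lies at 87.4 on the marker axis among the sham and contralateral points in the Mmp12 panel, and in the Timp2 panel LPC replicates 1 and 2, at 306.2 and 268.9 CPM, lie above the other 13 libraries.

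Among tested genes of at least 1 in mean log2 CPM, those most like Mmp12 over the 15 libraries were Ms4a6d (r = 0.986), Cst7 (0.982) and Ctsd (0.982). Over the 9 sham and contralateral libraries, where Mmp12 had 0 to 5 counts, these were 0.645, 0.646 and 0.594. For Mmp19 they were Abcc3 (0.942), Ccdc88b (0.925) and Arhgap4 (0.924), which fell to 0.474, 0.225 and 0.47 over the same 9. Timp2 was most like Adipor1 (0.946), Eef2 (0.934) and Sirpa (0.934), with 0.898, 0.913 and 0.939 over the 9, and Timp1 like Tor3a (0.925), Git2 (0.901) and Dtx3l (0.897). For Mmp2 the nearest genes were Daglb (0.895), Golm1 (0.893) and Arsb (0.891), for Mmp14 Diaph1 (0.932), Vav3 (0.932) and Dennd2a (0.93), and for Mmp9 Srrm4 (0.87), Shank1 (0.863) and Raph1 (0.843). Timp3 was nearest to N4bp1 (0.918), Tet3 (0.913) and Shc3 (0.913). Timp4 had the lowest values of the 9, with Amigo3 (0.726), AU041133 (0.663) and Mrnip (0.643). Among pairs of members, r was above 0.8 for Mmp12 with Mmp19 (0.88), Mmp12 with Timp1 (0.818) and Mmp14 with Timp2 (0.809).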

How the data were processed

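The authors deposited a table of whole-number read counts per gene symbol and a table of FPKM, which allow for gene length and library size, both for all 15 libraries. Per the labels' protocols, RNA was TRIzol-extracted, ribosomal RNA-depleted, poly(A)-purified and sequenced in pairs. Per the submitters' processing notes the build was GRCm39 and the tools HISAT2 2.2.1 and R 4.4.2. How reads were counted, on which strand and against which gene models is not given in the sources used here.

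The test of the deposited counts was that of edgeR 4.0.16 in R 4.3.3 (quasi-likelihood test, robust dispersion, TMM scaling, filterByExpr with minimum count 10 and minimum total 15), in one model of 15 libraries with 5 group means and no replicate term. P-values were Benjamini-Hochberg adjusted over 16795 genes and called under 0.05. The script was tested on simulated data. CPM used TMM-scaled library sizes. Two-sided exact permutation tests used SciPy 1.17.1. Same-numbered L-NIO libraries of both sides deviated together (correlations 0.599, 0.356 and 0.249), which no other comparison showed in every pair.

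The members and the gene and marker lists were chosen with earlier results of these data known. All 9 members are named, with up to 4 genes of smallest adjusted p per related list, Syn1 to Syn3, and 3 genes of highest correlation per member. Alternatives were DESeq2 1.42.0, DESeq2 size factors, no filter, limma 3.58.1 on log2(FPKM + 1) and log2(FPKM + 0.1), a replicate block, the compared groups alone and leaving out each library.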

Additional observations from a re-analysis of the deposited data

How the results depend on the processing

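No member's fold change that had been called changed sign under any alternative run. For LPC ipsilateral against sham the 2 called members became 1 without the filter on low counts (Timp2), 1 with the replicate block (Timp2, with Mmp12 at 4.35 and an adjusted p that rounds to 0.05 and was not under it), 0 with only the groups compared and 0 with limma on log2(FPKM + 1), with or without the filter, and on log2(FPKM + 0.1). Over all genes these fits called 524, 652, 0 and, in each limma fit, 3, against 871. On log2(FPKM + 1), Mmp12 read 0.49. Leaving out 1 library in turn gave 0 to 3. Mmp12 stayed called in 9 and Timp2 in 14 of 23 alternatives, with Mmp12 also lost without L-NIO ipsilateral replicate 3 or L-NIO contralateral replicate 2 or 3 (adjusted p = 0.0502, 0.0585 and 0.052).

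For L-NIO ipsilateral against sham the 0 became 1 (Mmp12) with only the groups compared (adjusted p = 0.0178, 363 genes called), and 0 to 1 leaving out 1 library. For LPC ipsilateral against LPC contralateral the 0 became 3 with the DESeq2 Wald test (Mmp2, Mmp12 and Mmp19, of 700 genes called), and 0 to 3 leaving out 1 library. For L-NIO ipsilateral against L-NIO contralateral the 0 became 1 (Mmp12) with DESeq2 (180 genes called) and with only the groups compared (355), 2 (Mmp12 and Timp1) with only the 6 L-NIO libraries and the replicate block, a fit added after seeing the data, and 0 to 1 leaving out 1 library; with the block over all 15 libraries it stayed 0. The other 5 comparisons stayed at 0 under every alternative run. The cause of these changes was not tested, except that leaving out a library or a group lowers the number of samples.

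The MMP to TIMP ratio difference, 0.00087 after LPC and -0.0034 after L-NIO, became 0.0179 and 0.0167 against the contralateral side, and -0.286 and -0.219 with all MMP genes summed. Leaving out 1 library gave -0.0045 to 0.0084 and -0.0074 to 0.0040. The Timp1 share difference ran from -0.93 to 0.89 points after LPC and from 1.3 to 3.12 after L-NIO when 1 library was left out. Depth limits Mmp9, Mmp12, Mmp19 and Timp1, which had at most 107 counts in a library.

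Same-numbered libraries deviated together in every pair only between the 2 L-NIO sides. Between the LPC sides the correlations were -0.0357, 0.165 and 0.334. The labels do not state that a number marks one mouse. Of the 15 libraries, 8 correlated best with one of their own number. That count was not set against the number that unpaired libraries would give, and it is not read as pairing. With the replicate block over all libraries, no call other than that of Mmp12 in LPC ipsilateral against sham changed.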
